A study of Homo sapiens with 8 samples.

Results

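The genes described here are 10 members of the chromatin machinery that KMT2A fusions work through: KMT2A, MEN1, PSIP1, WDR5, DOT1L, MLLT10, MLLT3, MLLT1, AFF1 and AFF4. They form a list of named complex members, drawn up with earlier results of these data known, and all 10 were found by Ensembl identifier among the 63140 genes of the count table. All 10 had enough counts to be tested, among 24057 tested genes. KMT2A (also called MLL) is a histone H3 lysine 4 methyltransferase that is broken and joined to a partner gene in a class of acute leukaemias. Menin, the product of MEN1, tethers KMT2A and its fusions to chromatin together with PSIP1, and WDR5 is a core subunit of KMT2-family methyltransferase complexes. The fusion partners MLLT3, MLLT1, AFF1 and AFF4 belong to the machinery that releases paused RNA polymerase. MLLT10, also a fusion partner, works with DOT1L, the histone H3 lysine 79 methyltransferase.

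The study applied ChIRP, in which biotinylated probes pull down crosslinked RNA and what is bound to it, to leukaemia cells 3 days after editing, and the labels' protocol describes sequencing of the recovered RNA. Editing was by nucleofection of Cas9 ribonucleoprotein (KO) or of a cytosine base editor (CBE), each with guides labelled AAVS1 (a genomic site commonly edited as a harmless control) or HOTSCRAMBL (a long non-coding RNA). This gives 4 groups of 2 libraries: 2 controls (AAVS1 KO and AAVS1 CBE) and the corresponding 2 with HOTSCRAMBL guides. In each, replicate 1 is labelled MOLM13 and replicate 2 OCI-AML4, both human acute myeloid leukaemia cell lines. Controls were nucleofected with the same kind of editor, and the level of HOTSCRAMBL itself is not analysed here because no gene of that name is in the symbols used. MOLM13 is known to carry a KMT2A-MLLT3 fusion. Counts per gene cannot separate a fusion transcript from the normal transcripts of either gene. The RNA that the probes target is not given in the sources used here, and no label marks a library as input. Values are therefore taken as levels in recovered RNA, as the protocol describes.

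The libraries held 20548300 to 37970163 counts, and the 10 genes took 0.137% to 0.145% of them in the 4 AAVS1 libraries. That share was 0.0909% to 0.0973% with HOTSCRAMBL KO and 0.114% to 0.117% with HOTSCRAMBL CBE. Mitochondrially encoded genes took 6.77% to 7.23% of counts in the AAVS1 libraries and 10.2% to 11.9% in the HOTSCRAMBL libraries, and ribosomal protein genes 1.32% to 1.60% and 3.20% to 4.46%. All 8 markers of myeloid cells were counted, with a summed level of 961 to 1025 CPM (counts per library size, scaled by TMM, which aligns the bulk of genes between libraries) in AAVS1 KO and 1439 to 1645 in HOTSCRAMBL KO. With CBE that sum was 930.5 to 952.3 with AAVS1 guides and 950.4 to 1026 with HOTSCRAMBL guides. Over all libraries LYZ ranged from 116 to 702 CPM and SPI1 from 247 to 286, so the sum does not show how each marker moved. The 3 T-cell markers summed to at most 2.35 CPM, with CD3E and CD2 at 0 in every library, and the 3 erythroid markers to at most 0.212, with HBB at 0. The 3 epithelial markers summed to 2.04 to 3.33 CPM in AAVS1 KO, 0.0510 to 0.134 in HOTSCRAMBL KO and 1.26 to 3.80 in the CBE libraries. The 3 fibroblast markers summed to 0.960 to 1.02 CPM in AAVS1 KO and 0 to 0.0894 in HOTSCRAMBL KO, and with CBE to 0.212 to 0.900 and 0 to 0.360. Between the MOLM13 and OCI-AML4 labels only 119 of the 24057 genes (0.495%) passed the edgeR test at an adjusted p under 0.05, and none of the 10 members did. Libraries of the same label deviated from their group means with correlations of 0.00851 to 0.0245 over tested genes and 0.0386 to 0.112 over genes above the median level. Whether the labels match the lines was not tested.

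The sequence just upstream of 4 of the genes is shown because of what the results compare. KMT2A and MLLT3 are the pair joined in MOLM13, MLLT1 is the close relative of MLLT3 that was recovered at a far higher level, and WDR5 is a gene whose level fell with HOTSCRAMBL KO. The stretches were read from RefSeq promoters of build GRCh38.p14, 5' to 3' on the gene's own strand, and end before the first annotated exon base. WDR5 has 4 RefSeq starts, and the start nearest its first annotated exon base was taken. DOT1L had no promoter in the set used, so none is shown. Capitals mark GC boxes (GGGCGG or CCGCCC) and CCAAT boxes (CCAAT or ATTGG), searched on both strands, and no GC box overlaps a CCAAT box, while the first 2 GC boxes of MLLT3 share 1 base.
KMT2A, chr11:118436242-118436455, plus strand: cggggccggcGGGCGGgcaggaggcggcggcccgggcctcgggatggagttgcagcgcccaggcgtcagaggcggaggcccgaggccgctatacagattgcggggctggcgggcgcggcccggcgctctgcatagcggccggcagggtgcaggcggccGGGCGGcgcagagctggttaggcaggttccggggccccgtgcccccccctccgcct
MLLT3, chr9:20622500-20622749, minus strand: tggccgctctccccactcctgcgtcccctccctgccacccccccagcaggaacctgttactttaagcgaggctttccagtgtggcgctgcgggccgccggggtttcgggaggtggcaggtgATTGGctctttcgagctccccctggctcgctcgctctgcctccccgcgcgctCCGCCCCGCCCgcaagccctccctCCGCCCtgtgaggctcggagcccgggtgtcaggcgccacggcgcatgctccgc
MLLT1, chr19:6279976-6280225, minus strand: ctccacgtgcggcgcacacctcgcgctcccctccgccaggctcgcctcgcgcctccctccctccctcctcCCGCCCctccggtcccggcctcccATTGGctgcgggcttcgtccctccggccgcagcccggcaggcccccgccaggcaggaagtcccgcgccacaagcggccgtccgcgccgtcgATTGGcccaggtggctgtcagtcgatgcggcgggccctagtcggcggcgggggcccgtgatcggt
WDR5, chr9:134135127-134135364, plus strand: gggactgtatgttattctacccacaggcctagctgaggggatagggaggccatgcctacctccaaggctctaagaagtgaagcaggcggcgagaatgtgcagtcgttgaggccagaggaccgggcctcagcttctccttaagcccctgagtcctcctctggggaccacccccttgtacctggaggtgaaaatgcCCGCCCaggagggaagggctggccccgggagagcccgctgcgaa
The KMT2A stretch holds 2 GC boxes and no CCAAT box, and the MLLT3 stretch 3 GC boxes and 1 CCAAT box. The MLLT1 stretch holds 1 GC box and 2 CCAAT boxes, and the WDR5 stretch 1 GC box and no CCAAT box. Among all 35116 RefSeq windows of 250 bases, 42.6% held a GC box and 32.0% a CCAAT box, so both motifs are common in such windows.

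Per length of annotated exon the 10 genes spanned a 23.3-fold range, and KMT2A and MLLT3, the genes joined in MOLM13, were the lowest of them. MLLT3 lay at 1.36 ± 0.475 CPM per kb (SD, n = 8 libraries) and KMT2A at 2.36 ± 0.555. The highest were MLLT1 at 31.7 ± 5.11, DOT1L at 29.2 ± 7.78 and AFF1 at 26.6 ± 3.40. MLLT1 exceeded DOT1L in 5 of 8 libraries. DOT1L exceeded AFF1 in all 4 AAVS1 libraries (34.3 to 38.7 beside 25.5 to 28.7 CPM per kb) and lay below it in all 4 HOTSCRAMBL libraries (18.6 to 25.9 beside 21.3 to 31.4), so their order depends on the guide. Below them came WDR5 at 18.4, MLLT10 at 14.3, MEN1 at 9.63, PSIP1 at 6.62 and AFF4 at 5.85 CPM per kb. Of the neighbours in that order, AFF1 was above WDR5, MLLT10 above MEN1 and AFF4 above KMT2A in all 8 libraries. WDR5 was above MLLT10 and MEN1 above PSIP1 in 7 of 8, and PSIP1 above AFF4 and KMT2A above MLLT3 in 6 of 8. Relatives differed widely: MLLT1 stood 11.5 to 35.7 times above MLLT3 within a library, and AFF1 2.79 to 5.87 times above AFF4. Among all tested genes, MLLT1 was at percentile 95.8 per kb and MLLT3 at percentile 37.0. The annotated exons of KMT2A add up to 31469 bases, the most of the 10, and any that are rarely used lower its level per kb.

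**Figure D1:**
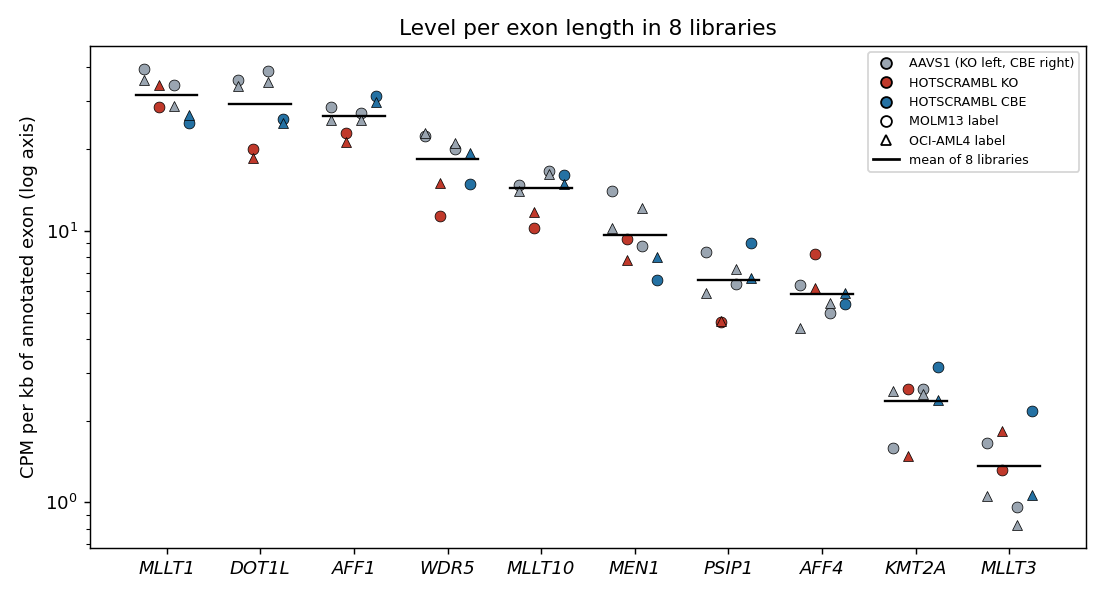
Level of each of the 10 genes in every library, in TMM-scaled CPM per kb of annotated exon on a log axis, ordered by the mean of 8 libraries (black bars). MLLT1, DOT1L and AFF1 overlap at the top, and KMT2A and MLLT3 lie lowest at 2.36 and 1.36 CPM per kb.

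With HOTSCRAMBL KO against AAVS1 KO, 2 of the 10 genes changed, DOT1L and WDR5, and both fell. The same test called 8.76% of all tested genes (4.25% as lower), and 17.2% of the 8916 genes within the members' range of mean CPM, so a count of 2 is near the background. The median over the members was -0.34 on the log2 scale, beside -0.01 over all tested genes, and 8 of 10 values were below 0. An unadjusted edgeR p under 0.05 was reached by 7 members, beside 4834 of all 24057 genes. With HOTSCRAMBL CBE against AAVS1 CBE, DOT1L alone changed and again fell, where 8.83% of all tested genes were called (4.27% as lower) and 18.6% of those within the members' range of CPM. There the median was 0.01, beside -0.02 over all tested genes, with 5 values on each side of 0, and 4 members and 4845 genes had an unadjusted edgeR p under 0.05. None of the 10 passed the test of the difference between the KO and CBE effects, which called 3.19% of tested genes (3 members and 3399 genes had an unadjusted edgeR p under 0.05, DESeq2 and limma-voom each called 1, AFF1). Library values of the 2 groups did not overlap for 7 members with KO and 7 with CBE, beside 44.8% and 46.4% of all tested genes. A lower level in such bulk recovered RNA can come from fewer cells of a type, less RNA per cell or weaker recovery, and these cannot be told apart.

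**Figure D2:**
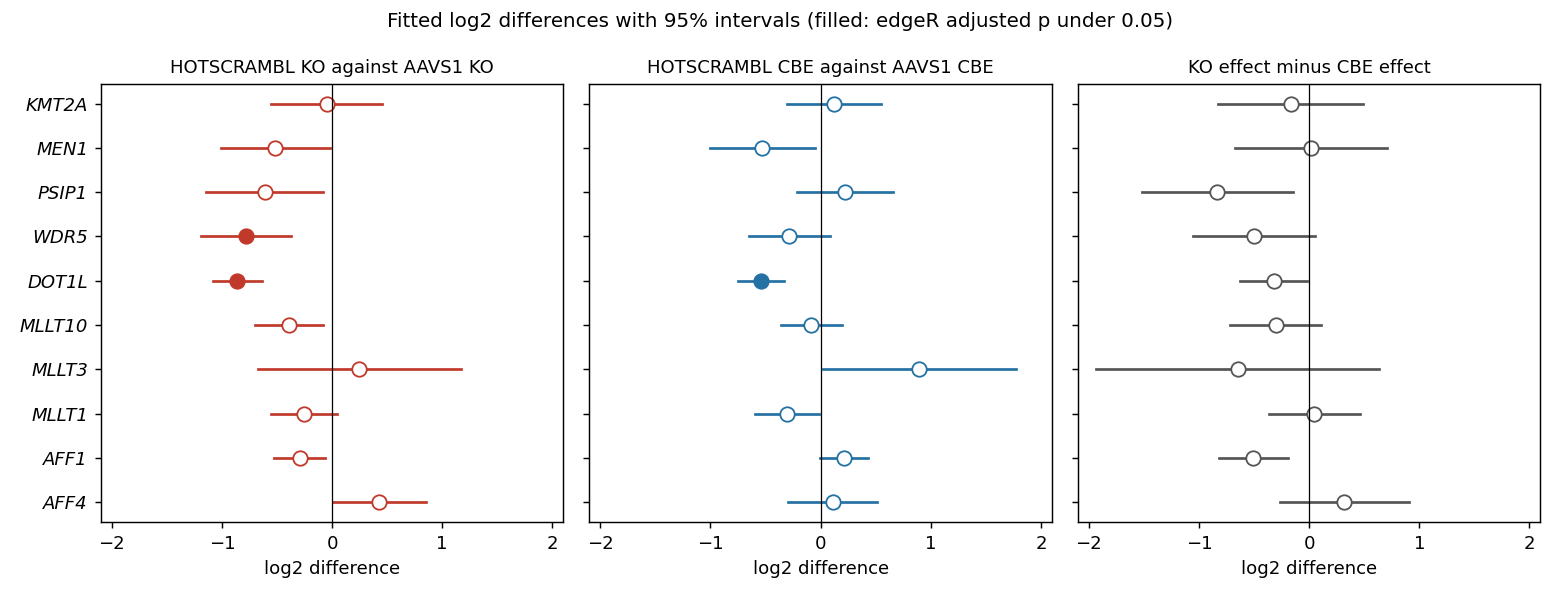
Fitted log2 differences of the 10 genes with 95% intervals, for HOTSCRAMBL KO against AAVS1 KO, HOTSCRAMBL CBE against AAVS1 CBE, and the KO effect minus the CBE effect. Filled points passed the edgeR test at an adjusted p under 0.05: WDR5 and DOT1L with KO, DOT1L with CBE, and no gene for the difference.

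DOT1L (ENSG00000104885, GRCh38 chromosome 19, 2163933 to 2232578, plus strand), the only known H3 lysine 79 methyltransferase, was the member that fell with both editors. Its level in AAVS1 KO was 413.7 and 393.6 CPM for the MOLM13 and OCI-AML4 labels, and in HOTSCRAMBL KO 231.0 and 213.4. With CBE, the control libraries had 444.9 and 405.4 and the HOTSCRAMBL libraries 297.8 and 287.5. Every HOTSCRAMBL library lay below every AAVS1 library. The fitted change was -0.86 on the log2 scale with KO (SE 0.109, 95% interval -1.08 to -0.64, edgeR adjusted p = 2.206e-06), a 1.82-fold fall. With CBE it was -0.54 (SE 0.102, 95% interval -0.75 to -0.33, edgeR adjusted p = 0.0006761), a 1.45-fold fall. The KO effect minus the CBE effect was -0.32 on the log2 scale, which did not pass the test (SE 0.149, edgeR adjusted p = 0.316). The KO call held under every alternative processing tried. The CBE call missed the threshold without the MOLM13-labelled AAVS1 CBE library (-0.50, edgeR adjusted p = 0.06084) and without the MOLM13-labelled HOTSCRAMBL CBE library (-0.51, edgeR adjusted p = 0.05115), and in a fit of only the 4 CBE libraries (edgeR adjusted p = 0.06057). Leaving out mitochondrial and ribosomal protein genes gave -0.85 with KO and -0.54 with CBE. Genes on the opposite strand, PLEKHJ1 among them, overlap 11.26% of the DOT1L exon bases, and the counts carry no strand.

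MLLT10 (ENSG00000078403, GRCh38 chromosome 10, 21524646 to 21743630, plus strand), a reader protein that acts with DOT1L and is a fusion partner of KMT2A, had 135.2 and 128.4 CPM in AAVS1 KO and 93.3 and 107.3 in HOTSCRAMBL KO. The CBE libraries gave 151.8 and 148.3 with AAVS1 guides and 146.4 and 135.9 with HOTSCRAMBL guides. The groups did not overlap in either comparison. The fitted change was -0.39 with KO (SE 0.151, edgeR adjusted p = 0.1239) and -0.09 with CBE (SE 0.134, edgeR adjusted p = 0.7838), neither past the threshold.

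WDR5 (ENSG00000196363, GRCh38 chromosome 9, 134135365 to 134159968, plus strand), the subunit that helps assemble KMT2-family methyltransferases, fell with KO. Its level was 81.6 and 83.1 CPM in AAVS1 KO and 41.1 and 54.6 in HOTSCRAMBL KO, with no overlap. With the base editor it had 72.8 and 76.8 for AAVS1 and 54.1 and 70.3 for HOTSCRAMBL, again with no overlap but a smaller gap. The KO change was -0.78 (SE 0.200, 95% interval -1.19 to -0.37, edgeR adjusted p = 0.01124), a 1.72-fold fall. The CBE change was -0.28 (SE 0.177, 95% interval -0.65 to 0.08, edgeR adjusted p = 0.4048). The difference between them was -0.50 (SE 0.269, edgeR adjusted p = 0.4208), so the 2 editors were not shown to differ. The KO call was lost in a fit of only the 4 KO libraries (-0.78, edgeR adjusted p = 0.122) and when any of them was left out. Without the MOLM13-labelled AAVS1 KO library the change was -0.67 (edgeR adjusted p = 0.2244), and without its OCI-AML4 counterpart -0.89 (edgeR adjusted p = 0.07013). Without the MOLM13-labelled HOTSCRAMBL KO library it was -0.67 (edgeR adjusted p = 0.162), and without the OCI-AML4 one -0.92 (edgeR adjusted p = 0.06524). The value was -0.77 without mitochondrial and ribosomal protein genes. The divergent transcript WDR5-DT shares 11.22% of the WDR5 exon bases.

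KMT2A (ENSG00000118058, GRCh38 chromosome 11, 118436456 to 118526832, plus strand) did not pass the test with either editor. In AAVS1 KO it had 50.1 CPM for the MOLM13 label and 80.9 for the OCI-AML4 label, and in HOTSCRAMBL KO 82.2 and 46.8. The 2 KO pairs thus went opposite ways, by 0.715 and -0.789 on the log2 scale. For CBE the values were 82.4 and 78.6 with AAVS1 guides, against 98.8 and 75.2 with HOTSCRAMBL. The fitted change was -0.05 with KO (95% interval -0.55 to 0.46, edgeR adjusted p = 0.9478) and 0.12 with CBE (95% interval -0.31 to 0.55, edgeR adjusted p = 0.8058). Other annotated genes, TTC36-AS1 among them, overlap 19.3% of its exon bases.

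MEN1 (ENSG00000133895, GRCh38 chromosome 11, 64803510 to 64811294, minus strand), which encodes menin, had 71.8 and 52.4 CPM in AAVS1 KO and 47.5 and 39.9 in HOTSCRAMBL KO. With CBE, the control libraries had 45.1 and 61.8 and the HOTSCRAMBL libraries 33.6 and 40.8. Both HOTSCRAMBL groups lay below their controls without overlap. The changes were -0.51 with KO (SE 0.241, edgeR adjusted p = 0.2263) and -0.53 with CBE (SE 0.230, edgeR adjusted p = 0.1846), and neither passed the threshold. Leaving out 1 library moved the KO value between -0.17 and -0.81 and the CBE value between -0.22 and -0.83.

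PSIP1 (ENSG00000164985, GRCh38 chromosome 9, 15464066 to 15510995, minus strand), the chromatin reader LEDGF that menin binds, had 56.4 and 39.9 CPM in AAVS1 KO and 31.1 and 31.5 in HOTSCRAMBL KO. The CBE libraries gave 43.1 and 48.9 with AAVS1 guides and 61.0 and 45.2 with HOTSCRAMBL guides. The KO groups did not overlap and the CBE groups did. The change was -0.61 with KO (SE 0.257, edgeR adjusted p = 0.1646) and 0.22 with CBE (SE 0.212, edgeR adjusted p = 0.6224).

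**Figure D3:**
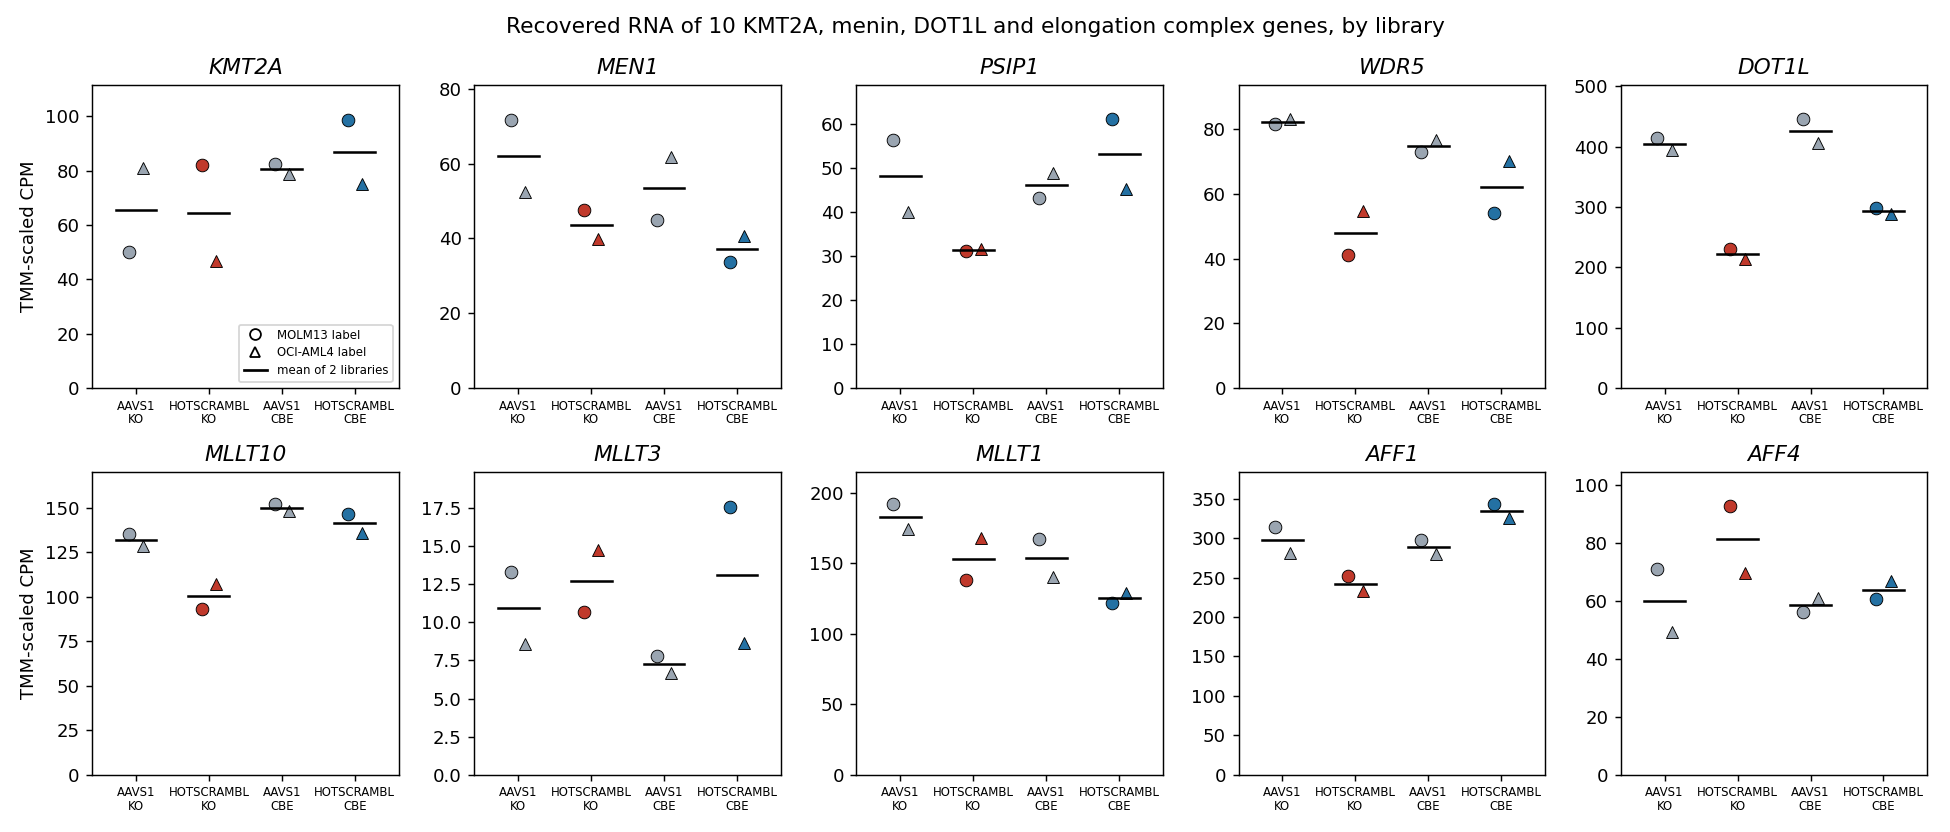
TMM-scaled CPM of each gene in every library, with circles for the MOLM13 label, triangles for the OCI-AML4 label and bars for the mean of 2 libraries. DOT1L is lower in all 4 HOTSCRAMBL libraries than in all 4 AAVS1 libraries, and KMT2A crosses over between labels in the KO groups.

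MLLT3 and MLLT1 encode YEATS-domain readers of acylated histones in the elongation machinery. MLLT3 (ENSG00000171843, GRCh38 chromosome 9, 20341669 to 20622499, minus strand) was the scarcest member, with 189 to 633 counts a library. It had 13.3 and 8.56 CPM in AAVS1 KO and 10.7 and 14.8 in HOTSCRAMBL KO. With CBE, the controls had 7.80 and 6.68 and the HOTSCRAMBL libraries 17.5 and 8.62. The highest value was the MOLM13-labelled HOTSCRAMBL CBE library. Its changes, 0.25 with KO (95% interval -0.68 to 1.17, edgeR adjusted p = 0.8116) and 0.90 with CBE (95% interval 0.02 to 1.77, edgeR adjusted p = 0.2337), did not pass the threshold and had the widest intervals of the 10. Without the MOLM13-labelled HOTSCRAMBL CBE library the CBE value was 0.32. MLLT1 (ENSG00000130382, GRCh38 chromosome 19, 6210381 to 6279975, minus strand) had 192.0 and 174.4 CPM in AAVS1 KO and 138.5 and 167.7 in HOTSCRAMBL KO. With the base editor it had 167.1 and 140.4 for AAVS1 and 121.6 and 129.2 for HOTSCRAMBL. The groups did not overlap with either editor, but changes of -0.25 (SE 0.144, edgeR adjusted p = 0.3439) and -0.30 (SE 0.141, edgeR adjusted p = 0.2255) did not pass.

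AFF1 and AFF4 are scaffolds of the super elongation complex. AFF1 (ENSG00000172493, GRCh38 chromosome 4, 86935002 to 87141039, plus strand) had 313.9 and 280.9 CPM in AAVS1 KO and 252.0 and 233.1 in HOTSCRAMBL KO, so both HOTSCRAMBL libraries were lower. For CBE the values were 298.3 and 279.7 with AAVS1 guides, against 344.0 and 325.9 with HOTSCRAMBL, so both were higher. The change was -0.29 with KO (SE 0.112, edgeR adjusted p = 0.1143) and 0.21 with CBE (SE 0.105, edgeR adjusted p = 0.2593), and the difference of -0.51 (SE 0.154) had an edgeR adjusted p of 0.07433. AFF4 (ENSG00000072364, GRCh38 chromosome 5, 132875395 to 132963634, minus strand) had 71.0 and 49.3 CPM in AAVS1 KO and 93.0 and 69.7 in HOTSCRAMBL KO. With CBE, the control libraries had 56.4 and 60.9 and the HOTSCRAMBL libraries 60.6 and 66.9. AFF4 was higher in both labelled lines with KO (0.389 and 0.499 on the log2 scale) and with CBE (0.104 and 0.133), while the groups overlapped. The fitted 0.43 (SE 0.204, edgeR adjusted p = 0.2353) and 0.11 (SE 0.196, edgeR adjusted p = 0.8112) did not pass.

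No member passed the test between the AAVS1 KO and AAVS1 CBE controls. Values ranged from -0.29 to 0.60 on the log2 scale, and edgeR called 0 of 24057 genes, with 918 genes and 0 members at an unadjusted p under 0.05, while DESeq2 called 35 genes. Between the MOLM13 and OCI-AML4 labels the members ranged from -0.20 to 0.41, and 0 members had an unadjusted p under 0.05.

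Across the 8 libraries the log2 CPM of AFF1 and PSIP1 went together most closely (Pearson r = 0.885), followed by DOT1L and WDR5 (r = 0.835). KMT2A and MLLT3, the genes joined in MOLM13, did not (r = -0.29, over libraries of both labels). Among 6015 genes in the upper 25% of level, those most like KMT2A were SCYL2 (r = 0.958), DPF2 (r = 0.921) and BCAS3 (r = 0.912). Those most like MLLT3 were TBXAS1 (r = 0.925), ADSS2 (r = 0.896) and SEC62 (r = 0.878). These coefficients describe 8 libraries that share groups and composition, and were picked as the largest of many.

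The shares of all genes called, 8.76% with KO and 8.83% with CBE (17.2% and 18.6% at the members' CPM), stand beside each list count that follows. The 5 lists gave 32 calls with KO or CBE. Of these, 26 were lost when at least 1 library was left out, and 5 held under every alternative. Of 17 other tested subunits of the KMT2 (COMPASS) complexes, 0 rose and 3 fell with KO, and 2 rose and 5 fell with CBE. KMT2B, the closest relative of KMT2A, fell with both, from 576 ± 50.8 to 349 ± 38.4 CPM with KO (SD, n = 2; -0.73, edgeR adjusted p = 2.438e-05) and from 552 ± 57.1 to 350.4 ± 21.0 with CBE (-0.65, edgeR adjusted p = 8.076e-05). SETD1A, a methyltransferase of a sister complex, fell by 0.74 and 0.62 (edgeR adjusted p = 0.0004005 and 0.001444). The enhancer methyltransferase KMT2D fell by 0.50 and 0.31 (edgeR adjusted p = 0.0004475 and 0.03001). With CBE, CXXC1 also fell by 0.53 and the acetyltransferase gene KAT8 by 0.57, while HCFC1 rose by 0.48 and WDR82 by 0.55 (edgeR adjusted p = 0.001615, 0.03759, 0.001445 and 0.02639).

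Of 10 tested genes of the super elongation complex and its kinase P-TEFb, 1 rose and 2 fell with KO, and 1 rose and 1 fell with CBE. The scaffold AFF3 fell from 251 ± 17.5 to 154 ± 4.69 CPM with KO (-0.70, edgeR adjusted p = 0.0003608). CDK9, the P-TEFb kinase, fell from 105 ± 0.681 to 61.1 ± 7.35 (-0.78, edgeR adjusted p = 0.004399). ELL2, an elongation factor, rose from 0.718 ± 0.794 to 6.48 ± 1.51 CPM (edgeR adjusted p = 0.02901), a call on few counts that 6 of 17 alternatives kept. With CBE, HEXIM1, the P-TEFb inhibitor, fell by 0.87 and EAF2 rose by 0.51 (edgeR adjusted p = 0.002536 and 0.02251). HEXIM2-AS1 overlaps 14.34% of HEXIM1 exon bases.

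Of 8 tested genes of the DOT1L and PAF1 complexes, 1 rose and 1 fell with KO, and 1 fell with CBE. With KO, MLLT6, a relative of MLLT10, fell from 289 ± 12.8 to 199 ± 12.7 CPM (-0.54, edgeR adjusted p = 0.004517), and CTR9, a PAF1 complex subunit, rose from 41.5 ± 0.704 to 76.6 ± 3.64 (0.89, edgeR adjusted p = 0.004931). CBX8, a Polycomb protein, fell with CBE from 38.3 ± 3.27 to 20.3 ± 6.78 (-0.97, edgeR adjusted p = 0.02183). Of 20 other KMT2A partner genes, 1 fell with KO and 3 rose with CBE. FNBP1 fell with KO (-0.71, edgeR adjusted p = 0.002806) and rose with CBE (0.52, edgeR adjusted p = 0.009506). The other 2 that rose with CBE were EPS15, by 0.80, and the acetyltransferase gene CREBBP, by 0.45 (edgeR adjusted p = 0.009126 and 0.01383).

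Of 14 tested genes known as targets of KMT2A fusions, 1 rose and 5 fell with KO, and 4 rose and 0 fell with CBE. The list medians were -0.38 and 0.30, beside -0.01 and -0.02 over all tested genes. SATB1 (498 ± 49.9 to 320.4 ± 7.85 CPM), IGF2BP2 (275 ± 4.37 to 165 ± 14.2) and MEIS1 (242 ± 12.1 to 152 ± 11.4) fell with KO, by 0.63, 0.74 and 0.67 (edgeR adjusted p = 7.349e-05, 0.0001171 and 0.001411). MEF2C and MYB, by 0.54 and 0.28, were the other 2 (edgeR adjusted p = 0.007818 and 0.0409). PBX3, a HOX cofactor, rose with both, by 0.39 with KO and 1.11 with CBE (edgeR adjusted p = 0.002806 and 5.333e-10). With CBE, MEIS1, JMJD1C and CDK6 rose by 0.63, 0.44 and 0.40 (edgeR adjusted p = 0.0007794, 0.008306 and 0.02066). The KO effect was below the CBE effect for 14 of 14 targets, with a median difference of -0.73 beside -0.01 over all tested genes. The share of all genes with a difference below 0 was not counted here. In all, 5 targets passed the test of that difference, where 3.19% of all genes did and 6.16% of genes in the members' CPM range. MEIS1-AS3 and MEIS1-AS2 overlap 13.31% of MEIS1 exon bases. Among the 14, other annotated genes overlap 62.51% of HOXA7 exon bases, 27.0% of HOXA9 and 26.33% of HOXA10. HOXA7 had only 0.849 to 6.94 CPM. KMT2D with CBE, KAT8, WDR82, MEF2C and MYB were named after their values were seen, to complete these counts. HOXA7, HOXA9 and HOXA10 were likewise named afterwards, to give their overlap.

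**Figure D4:**
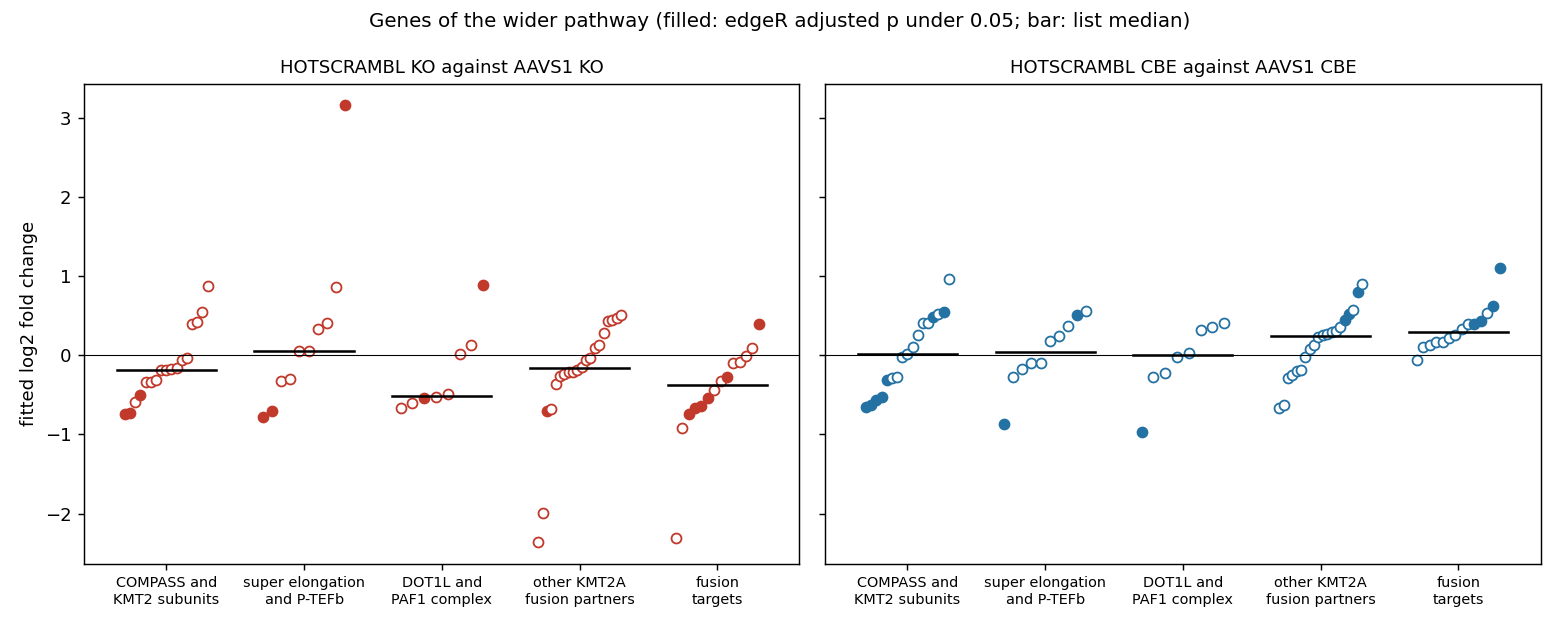
Fitted log2 fold changes of tested genes in 5 lists, with HOTSCRAMBL KO on the left and HOTSCRAMBL CBE on the right. Filled points passed the edgeR test at an adjusted p under 0.05 and bars are list medians, which for fusion targets are -0.38 with KO and 0.30 with CBE.

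Exon length moved with the HOTSCRAMBL effect, and all 10 members, at 3635 to 31469 bases, lie above the median exon length. Among the 6015 genes in the upper 25% of level, the median change was taken in 4 length classes that split all tested genes evenly. From the shortest to the longest, these classes held 117, 674, 1969 and 3255 of the 6015 genes. The median change in that order was 0.487, 0.149, -0.098 and -0.131 with KO. With CBE it was 0.717, 0.191, -0.006 and -0.023. The part of length, of the changed marker sums with KO, and of the higher mitochondrial and ribosomal protein shares in the fall of DOT1L and WDR5 was not tested beyond the fit that left those 2 gene classes out.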

How the data were processed

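The authors deposited raw counts per gene, made per the file headers with featureCounts 2.0.6 on an Ensembl annotation of GRCh38, without strand; 71.8% to 74.9% of values from 1 to 20 were even, as when both mates of a pair are counted. Exon lengths are the deposited table's. The aligner is not given in the sources used here. Here, 2 broken records were rejoined, genes were filtered by group (minimum count 10), scaled by TMM, and tested with edgeR 4.0.16 (quasi-likelihood, R 4.3.3) in 1 model of 4 groups with the labelled line as block, leaving 3 residual degrees of freedom; p-values were adjusted over 24057 genes. The 95% intervals of the 10 members rest on 25.2 to 25.7 degrees of freedom, because edgeR shares information on spread across genes. With the same SE, the 3 residual ones alone would give wider intervals. The numbers pair the libraries because each number is one labelled line. Nothing states separate cultures, so p-values measure only the spread between these libraries. Alternatives used DESeq2 1.42.0, limma 3.58.1, other scaling, filters and left-out libraries. Members and lists were chosen with earlier results of these data known. Named pathway genes are at most 4 per list and editor with the smallest p past the threshold of 0.05; the 3 genes most like KMT2A and MLLT3 were taken by Pearson r of log2 CPM (prior count 2). Code was tested on simulated data. Of the genes listed for the pathway and for markers, 2 are not reported here.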

Additional observations from a re-analysis of the deposited data

Results flagged for a closer look

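AFF1 was flagged because its library pairs went opposite ways with the 2 editors. Both labelled lines were lower with KO (-0.317 and -0.269 on the log2 scale) and both higher with CBE (0.206 and 0.22). Neither change passed the edgeR test by itself (adjusted p = 0.1143 with KO and 0.2593 with CBE). The difference was -0.51 (edgeR adjusted p = 0.07433), and it passed with DESeq2 (adjusted p = 0.0008837) and limma-voom (adjusted p = 0.02124). Among pathway genes, the KO effect minus the CBE effect passed the edgeR test for 8 genes. It was -1.29 for MEIS1 (adjusted p = 5.058e-05), -1.23 for FNBP1 (adjusted p = 0.0004147) and -0.99 for IGF2BP2 (adjusted p = 0.0004333). It was -0.87 for MEF2C (adjusted p = 0.004289), -0.74 for SATB1 (adjusted p = 0.001752) and -0.71 for PBX3 (adjusted p = 0.0005431). It was -0.52 for HCFC1 (adjusted p = 0.03937). HEXIM1 alone of the 8 had a positive difference, 1.21 (adjusted p = 0.005822). Of 16 alternatives, all kept the calls of MEIS1, FNBP1, IGF2BP2 and PBX3, while 15 kept SATB1, 10 HEXIM1, 10 MEF2C and 6 HCFC1.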

How the results depend on the processing

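With 2 libraries a group, calls depend on single libraries. Leaving out 1 library gave 1 to 2 members called with KO and 0 to 1 with CBE, and 701 to 1679 and 579 to 1935 genes in all (main counts 2108 and 2124), 234 to 370 for the difference (main 767) and 26 to 58 for the line labels (main 119). Over the same fits KMT2A ran from -0.55 to 0.54 with KO, -0.0824 to 0.28 with CBE and -0.66 to 0.43 for the difference, MLLT3 from -0.34 to 0.81 with KO and 0.32 to 1.21 with CBE, AFF4 from -0.0779 to 0.33 and PSIP1 from -0.0554 to 0.47 with CBE, and the differences of MEN1 from -0.29 to 0.35 and MLLT1 from -0.16 to 0.23. With only the 4 libraries of a contrast, 1 member and 661 genes were called with KO, and 0 members and 528 genes with CBE. Without TMM scaling, 4 members were called with KO and 2 with CBE, the median of all genes moved to -0.17 and -0.15, the split of higher against lower calls went from 1085 and 1023 to 840 and 1695 with KO and from 1096 and 1028 to 782 and 1616 with CBE, and KMT2A (-0.0181 with CBE), AFF4 (-0.0277 with CBE) and MEN1 (-0.0058 for the difference) changed sign. DESeq2 called 5 members and 4150 genes with KO, 3350 genes with CBE, 1 member and 2204 genes for the difference, 35 genes between controls and 715 between line labels; limma-voom called 1 member for the difference and 265 genes between line labels. The members gained with KO were MLLT10 and AFF1, both without TMM and with DESeq2, and PSIP1 with DESeq2 alone. MLLT1 was the member gained with CBE without TMM. Without the replicate block the difference gave 503 genes, and no call of a member changed. The legacy edgeR fit, added after seeing the data like the fit without mitochondrial and ribosomal protein genes, gave 193 genes between line labels. Of 32 pathway calls with KO or CBE, 26 were lost when at least 1 library was left out, 0 changed direction, and 5 held throughout (AFF3, IGF2BP2, KMT2B and SATB1 with KO, PBX3 with CBE). The first fits held fewer libraries, and what caused the shifts under any alternative was not tested. MLLT3 was the member with the fewest counts, 189 in its lowest library. How far sequencing depth, rather than variation between libraries, set the spread of its values was not tested.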
